A study of Mus musculus with 451 samples.

Results

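Tenocyte-like cells of the mouse tail tendon were chosen by their reads of Tnmd and Fmod. In each cell the level of a gene was its reads scaled to a library of 1000000 reads (CPM), and a cell was a member when the mean of log2(CPM+1) over Tnmd and Fmod was 10 or more. Of 227 wild-type (WT) cells 78 were members, and of 224 Mkx-/- cells 84 were members, together 35.9% of all cells. The remaining 289 cells are called other cells here. Values of Tnmd and Fmod chose the members, so wherever they or their mean (the score) are given below they are a description and support nothing.

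The cells came from tail tendons of 4-week-old C57BL/6 mice, either WT or Mkx-/-, with no treatment named in the labels. Mkx encodes Mohawk, a transcription factor of the tendon lineage, and mice without it form ectopic bone in tendons. The tendons were digested with collagenase I, strained, and captured as single cells on a Fluidigm C1 chip, so each library was 1 cell. From which animal or chip a cell came is not given in the sources used here, which also do not state which part of Mkx was deleted. Each genotype was therefore counted as 1 sample, no test between genotypes or between kinds of cell was made, and no genotype difference below has a replicate check. Animal, chip, digestion and genotype cannot be told apart.

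Tenocytes are the resident fibroblasts of tendon. They lie between bundles of collagen I fibrils and secrete the collagens, the small leucine-rich proteoglycans that set the width of fibrils, and the enzymes that mature and cross-link them. Tnmd encodes tenomodulin, a membrane protein of mature tendon cells, and Fmod encodes fibromodulin, a proteoglycan that binds collagen I.

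Of the cells of both genotypes, 16 had a score of 8 to 11. The cells just outside the cutoff scored 9.998 (Mkx-/-), 9.992 (WT), 9.058 (Mkx-/-) and 9.046 (Mkx-/-), and those just inside scored 10.083 (Mkx-/-), 10.270 (WT) and 10.335 (WT). The median score was 12 in WT members and 12.4 in Mkx-/- members, and 5.33 in WT and 6.57 in Mkx-/- other cells. Members made up 34.4% of WT cells (28.2 to 40.9) and 37.5% of Mkx-/- cells (31.1 to 44.2), with exact Clopper-Pearson intervals at 95%. The difference of 3.14 percentage points had a Newcombe interval of -5.68 to 11.9, which counts cells and is no test between genotypes. All intervals here cover counting error only, because reads are not unique molecules and cells of a genotype share their source.

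**Figure D1:**
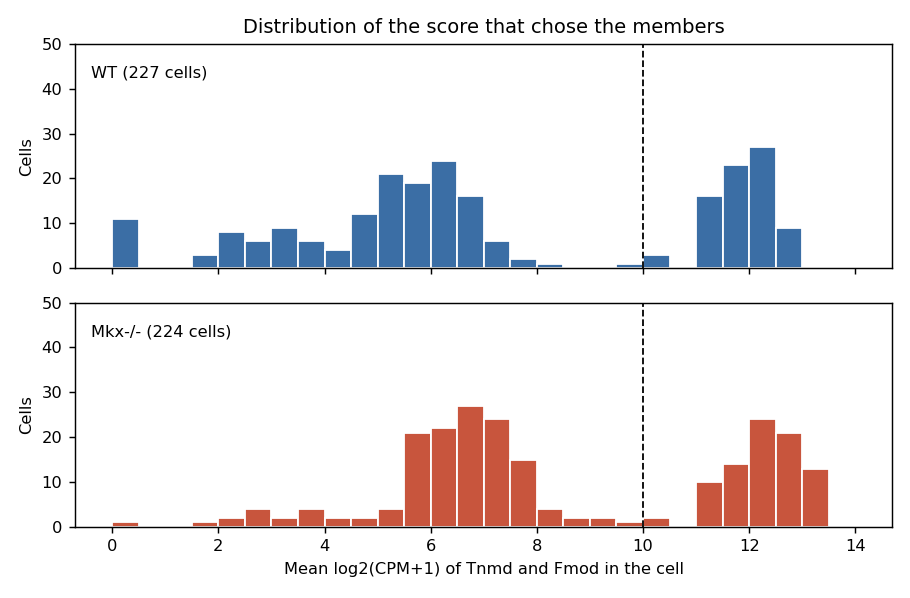
Number of cells (vertical axis) in each range of the mean log2(CPM+1) of Tnmd and Fmod (horizontal axis), for WT cells above and Mkx-/- cells below. The dashed line is the cutoff of 10, and 78 WT and 84 Mkx-/- cells lie to its right.

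Members were sequenced more deeply than other cells. They had a median of 81693 reads in WT and 72897 in Mkx-/-, against 41921 and 46389 in other cells, and the shallowest member had 26755 reads. Members held 48.5% of all WT reads and 51.1% of all Mkx-/- reads. For this reason shares of cells with a read are also given after thinning each cell to 20000 reads, which kept every member and left out 2 WT and 5 Mkx-/- other cells. A few members carried genes of other cell types. Over 1000 CPM of Schwann cell markers was found in 3 WT members and 1 Mkx-/- member, and 1 further WT member had 3962 CPM of Lyz2, a gene of macrophages. The deepest cell of all, with 335813 reads and 9924 genes, was 1 of those WT members and also held 1206 CPM of endothelial markers. By endothelial, immune or Schwann cell markers, 4 WT members and 1 Mkx-/- member stood apart in this way. Mural cell markers were not counted here, and passed 1000 CPM in 0 WT and 3 Mkx-/- members. The targeted gene, Mkx, was read in 57.7% of WT members and 26.2% of Mkx-/- members. Since the deleted part is not stated, those reads do not check the labels.

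The name tenocyte was set beside 6 genes that the rule did not use: Col1a1, Col1a2, Col11a1, Col11a2, Kera and Sparc. At least 1 read of all 6 was found in 72 of 78 WT members and 67 of 84 Mkx-/- members, against 8 WT (5.37%) and 16 Mkx-/- (11.4%) other cells. Ranking all cells by these 6 genes in place of Tnmd and Fmod gave 96.3% of the same cells. The counts of cells with all 6 genes are at full depth, and members had more reads than other cells. The study named Col1a1, Col1a2, Col11a2 and Sparc, with Tnmd and Fmod, as genes of its tenocyte cluster in the same single-cell data. The overlap therefore describes the label of tenocyte-like cells and is no independent support for it.

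Collagen I and Sparc filled a large share of the members' libraries. Col1a1 and Col1a2, the chains of collagen I, together with Sparc, a collagen-binding glycoprotein, took 30.1% of reads in WT members and 21.3% in Mkx-/- members, but 2.6% and 3.17% in other cells. Col1a1 (chr11:94797538-94814356 on mm9) had its lowest, median and highest level at 6707, 111411 and 196600.1 CPM in WT members. It stood at 9656, 70701 and 169702 CPM in Mkx-/- members. In other cells the same 3 values were 716, 6548 and 23578 CPM in WT and 1721, 8072 and 39116 CPM in Mkx-/-. The ranges overlapped at their ends, with the members' medians far above the highest other cell in each genotype. Summed over cells, the log2 ratio of members to other cells was 3.94 (3.92 to 3.95) in WT and 3.08 (3.07 to 3.09) in Mkx-/-, where the brackets hold exact conditional 95% intervals. For Col1a2 the log2 ratio was 3.89 in WT and 2.98 in Mkx-/-, and for Sparc it was 2.21 and 1.72.

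This share bears on every ratio of CPM, because a gene with the same number of reads per cell looks lower where collagen I takes more of the library. Over all genes the median log2 ratio was -0.65 for WT and -0.45 for Mkx-/-, and -0.04 and -0.02 after scaling with edgeR's trimmed mean of M values (TMM). With 2-fold as the size that calls a gene, 414 of 10961 genes with at least 100 reads were higher in members in both genotypes (3.78%), and 1577 were lower (14.4%). Under TMM the counts were 665 and 722, so the share of calls that were higher went from 20.8% to 47.9%, and under DESeq2 size factors it was 49.2%. Lower levels below are to be read against these medians. Member genes are also those of the cells that Tnmd and Fmod picked, so these contrasts describe the cells and test nothing.

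The 25 genes with the highest ratios that were read in at least 50% of members of each genotype were led by Col2a1, Cilp2, Col11a2, Mfap4 and Col11a1. They had a median log2 ratio of 4.25 in WT and 3.61 in Mkx-/-. The ratio was larger in WT for 19 of the 25. In other cells these genes were not absent. Their summed level there was at the median 5.27% of the members' level in WT and 8.17% in Mkx-/-. Sequence before the start site is shown for 6 of the genes: the collagen I chain Col1a2, the collagen XI chains, the keratan sulfate proteoglycan Kera, and the cartilage matrix genes Chad and Cilp2, which the comparisons below turn on. Each run is the 150 bases upstream of the start on GRCm38.p6 from RefSeq, 5′ to 3′ on the gene's strand, with the E-box CANNTG and CCAAT (or ATTGG, its reverse complement) in capitals.

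Col1a2: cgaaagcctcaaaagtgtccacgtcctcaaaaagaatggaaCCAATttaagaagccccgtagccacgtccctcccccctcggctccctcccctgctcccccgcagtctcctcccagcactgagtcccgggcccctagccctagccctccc
Col11a1: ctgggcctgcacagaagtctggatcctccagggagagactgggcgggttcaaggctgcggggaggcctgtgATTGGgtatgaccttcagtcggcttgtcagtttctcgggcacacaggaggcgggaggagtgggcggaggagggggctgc
Col11a2: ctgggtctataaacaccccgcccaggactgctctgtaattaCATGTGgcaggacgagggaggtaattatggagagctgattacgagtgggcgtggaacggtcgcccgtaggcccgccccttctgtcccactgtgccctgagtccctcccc
Kera: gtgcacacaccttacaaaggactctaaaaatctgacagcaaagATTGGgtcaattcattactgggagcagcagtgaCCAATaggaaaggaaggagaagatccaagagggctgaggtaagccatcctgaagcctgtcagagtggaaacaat
Chad: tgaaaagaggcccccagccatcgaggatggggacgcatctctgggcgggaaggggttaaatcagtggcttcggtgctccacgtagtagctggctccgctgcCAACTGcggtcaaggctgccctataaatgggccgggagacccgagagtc
Cilp2: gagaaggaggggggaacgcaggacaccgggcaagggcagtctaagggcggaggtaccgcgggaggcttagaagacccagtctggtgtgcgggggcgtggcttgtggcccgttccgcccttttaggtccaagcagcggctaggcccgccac

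The windows lie at chr6:4505468-4505617 (plus strand), chr3:114030390-114030539 (plus), chr17:34038988-34039137 (plus), chr10:97607055-97607204 (plus), chr11:94564897-94565046 (plus) and chr8:69887393-69887542 (minus). E-boxes are the letters that basic helix-loop-helix factors such as Scx can bind. Col11a2 and Chad each held 1 E-box, Col1a2 and Col11a1 each held 1 CCAAT, Kera held 2, and Cilp2 held neither. No E-box overlapped a CCAAT in these windows. Of the 25 genes 18 had a promoter in the table, and 10 of those had an E-box and 4 a CCAAT, in at least 1 listed start and on either strand. Counted the same way, 51.2% and 27.7% of all genes in the table held them, and of its 32851 single promoters 47.7% and 24.5% did. A match describes a sequence and not a bound site.

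Among the 11 fibrillar collagens 5 were called higher in members in both genotypes, against 3.78% of all genes, and 3 were called lower, against 14.4%. The 5 were Col1a1, Col1a2, the collagen XI chains Col11a1 and Col11a2, and Col2a1, the chain of cartilage collagen II. Col11a1, which joins collagen fibrils early and limits their width, ran at 0, 759 and 2378 CPM in WT members as lowest, median and highest. In Mkx-/- members it ran at 30.3, 791 and 2348 CPM, and in other cells the medians were 0 and 21 CPM. Almost every member thus carried it, with log2 ratios of 5.47 (5.22 to 5.74) in WT and 4.47 (4.29 to 4.66) in Mkx-/-. After thinning, 97.4% of WT and 97.6% of Mkx-/- members had a Col11a1 read, against 21.8% and 43.7% of other cells. Col2a1 showed the largest ratio of the 25 genes in both genotypes, 6.76 (6.14 to 7.45) in WT and 5.25 (4.80 to 5.74) in Mkx-/-, at a median of 282 CPM in WT members and 129.3 in Mkx-/- members. The 3 lower fibrillar collagens were Col3a1, Col5a3 and Col24a1. Col3a1, the collagen III chain of thin and young fibrils, had a median of 502 CPM in WT members and 6718 in WT other cells (log2 ratio -2.48 (-2.51 to -2.44)), and 1704 against 6876 CPM in Mkx-/- cells (-1.75 (-1.77 to -1.72)). The list's median log2 ratio in WT was -0.28 in CPM and 0.32 under TMM.

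Of the 11 other collagens measured, Col12a1, Col6a3, Col8a1 and Col8a2 were called higher and Col14a1 lower, against 3.78% and 14.4% of all genes. Col12a1 encodes a chain that sits on the surface of collagen I fibrils. It was read in 87.2% of WT members and 15.6% of WT other cells after thinning, with a log2 ratio of 3.36, and the ratio in Mkx-/- cells was 2.60. Col8a1, a short network-forming chain, had log2 ratios of 3.86 and 3.50.

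Among 10 small leucine-rich proteoglycans other than Fmod, 3 were called higher and 1 lower, against 3.78% and 14.4% of all genes. Kera, keratocan, ran at 0, 590.3 and 3269 CPM in WT members as lowest, median and highest, and at 0, 690.1 and 4803 CPM in Mkx-/- members. In WT other cells the median was 0 and the highest 207.7 CPM, and in Mkx-/- other cells they were 19.4 and 1729 CPM. The lowest members overlapped the other cells, and the cell with the highest level among Mkx-/- other cells was the one just outside the cutoff. The log2 ratio was 6.08 (5.75 to 6.43) in WT and 4.11 (3.96 to 4.27) in Mkx-/-. Chad, chondroadherin, a cell-binding matrix protein of cartilage, had log2 ratios of 4.25 and 4.90, and Ogn, osteoglycin, 1.64 and 2.40. Dcn, decorin, the common proteoglycan of tendon, was high in all cells and had log2 ratios of only 0.42 and 0.32. Aspn, asporin, was the 1 gene called lower, at -2.51 and -2.21.

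Of 20 enzymes and chaperones that act on procollagen 7 were called higher in both genotypes, P4ha1, Crtap, Plod1, Lox, Loxl4, Pcolce and Sparc, and 2 lower, P4ha2 and Loxl1, against 3.78% and 14.4% of all genes. The remaining genes passed in neither direction in both genotypes. Lox, the lysyl oxidase that starts cross-linking, ran at 81, 1723 and 4367 CPM in WT members and 0, 955 and 4123 CPM in Mkx-/- members as lowest, median and highest. The medians in other cells were 72.9 and 59.8 CPM, with log2 ratios of 3.45 (3.37 to 3.54) and 3.01 (2.92 to 3.11). P4ha1, a subunit of prolyl 4-hydroxylase, had ratios of 2.50 and 1.93, whereas P4ha2, the other main catalytic subunit, had -2.17 and -2.46. The related subunits thus stood on opposite sides. Pcolce, which speeds removal of the procollagen tail, was at 1.99 and 1.54, and its paralogue Pcolce2 at -1.84 and -1.23. Of 20 genes for general folding and export in the endoplasmic reticulum 3 were called higher, Creb3l1, Sec61b and Kdelr3, and 0 lower. Over all genes the shares were 3.78% and 14.4%. The list's median log2 ratio was -0.43 in WT and 0.02 in Mkx-/-, against -0.65 and -0.45 over all genes. Under TMM these list medians were 0.17 and 0.45, and 4 genes were called higher.

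Of 13 tendon lineage transcription factors 5 were called higher, Scx, Mkx, Egr2, Six2 and Eya1, and 1 lower, Etv5, against 3.78% and 14.4% of all genes. Scx, scleraxis, which drives tendon fate in the embryo, was read in 53.8% of WT members and 3.36% of WT other cells, and in 42.9% and 7.14% of Mkx-/- cells. After thinning the members' shares were 42.3% and 32.1%, against 1.36% and 3.7%. The summed levels were 93 against 1.28 CPM in WT and 67.4 against 6.07 CPM in Mkx-/-, giving log2 ratios of 6.18 (5.25 to 7.32) and 3.47 (3.02 to 3.96). Scx was thus mostly a gene of the members, yet many members of each genotype had no read of it. Mkx itself was at 68.1 CPM in WT members and 1.57 in WT other cells, and at 28.9 and 1.45 CPM in Mkx-/- cells. Six2, a homeobox factor, had log2 ratios of 5.14 (3.75 to 7.04) and 4.80 (3.40 to 6.70), the wide intervals reflecting 4 reads in each set of other cells. Egr1, an immediate early factor also tied to tendon collagen, was higher in WT members (1.13) but not in Mkx-/- members (-0.40).

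Of 14 cartilage-type genes measured, 8 were called higher in members in both genotypes (3.78% of all genes were) and 1 lower (14.4% of all genes), and the list's median log2 ratio was 3.24 in WT and 3.19 in Mkx-/-, against -0.65 and -0.45 over all genes. The 8 were Col2a1, Acan, Sox9, Sox6, Matn3, Chad, Cilp2 and Ucma. Sox9, the master factor of cartilage, was read in 69.2% of WT members and 63.1% of Mkx-/- members, against 24.2% and 23.6% of other cells, and its log2 ratios were 2.30 (2.12 to 2.48) and 2.16 (1.95 to 2.38). Acan, the large proteoglycan aggrecan, was read in 25.6% and 45.2% of members and in 1.34% and 2.14% of other cells. Thinned, the shares with Sox9 were 60.3% and 46.4% of members and 17.7% and 16.3% of other cells, and those with Acan 12.8%, 27.4%, 0.68% and 0.741%. The gene called lower was Fgfr3, a growth plate receptor read in 1.28% of WT members and 5.37% of WT other cells. At 20000 reads a cell, WT members had reads of 3 to 10 of the 14 genes (median 6) and Mkx-/- members of 4 to 12 (median 8), against medians of 3 and 4 in other cells. Sp7 and Ibsp, 2 of the 5 osteoblast markers, had no read in any cell, member or other, so their absence does not set members apart. WT members had reads of 3 markers and Mkx-/- members of 2, whereas other cells of each genotype had reads of 1. Summed over cells, the list's level in CPM was 12.6 (WT members), 13.2 (WT other cells), 5.4 (Mkx-/- members) and 17.8 (Mkx-/- other cells).

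Of 8 bone and mineralization genes, Spp1 and Mgp were called higher and 0 lower, against 3.78% and 14.4% of all genes. Mgp, matrix Gla protein, an inhibitor of calcification, was read in every member and had log2 ratios of 1.98 and 2.53. Spp1, osteopontin, was read in 28.2% of WT members and 66.7% of Mkx-/- members, and in 2.68% and 17.9% of other cells. After thinning the members' shares were 19.2% and 53.6%, against 2.04% and 9.63% of other cells.

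Of 19 matricellular genes measured, Thbs4, Tnc and Wisp1 were called higher in members and Tnxb, Smoc2, Fbln2 and Fbln5 lower, against 3.78% and 14.4% of all genes, and under TMM the counts were 5 and 2. Thbs4, thrombospondin 4, a pentameric protein of tendon matrix, was read in every member at 369, 1846 and 6578 CPM in WT and 1667, 6286 and 17448 CPM in Mkx-/- as lowest, median and highest. The medians in other cells were 270.1 and 526 CPM, and the log2 ratios were 2.08 (2.03 to 2.14) and 2.99 (2.95 to 3.03). Tnc, tenascin C, had ratios of 4.51 and 3.15.

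Signals and their inhibitors were also among the 25 genes. Wif1, which binds and blocks Wnt proteins, had a median of 613 CPM in WT members and 689 in Mkx-/- members and log2 ratios of 5.20 and 3.90. Angptl7, an angiopoietin-like secreted protein, had ratios of 4.39 and 5.23. The membrane-bound ligands Efna1 (an ephrin) and Hbegf (a ligand of the epidermal growth factor receptor) had 5.57 and 2.85 in WT, and 3.85 and 2.94 in Mkx-/-. The counts that follow are to be read against 3.78% of all genes higher and 14.4% lower. Of 16 transforming growth factor beta genes, only the ligand Tgfb3 was called higher in both genotypes, while Tgfb1, the receptor Tgfbr2 and the binders Ltbp2 and Ltbp4 were called lower. In the bone morphogenetic protein pathway the receptor Bmpr1b was higher and Gdf10 and Smad6 lower of 13 genes. Of 16 metalloproteinase and inhibitor genes Timp1, Adamts4 and Htra1 were higher and Mmp11 and Adamts12 lower. Of 13 integrin, cadherin and gap junction genes Itga11, a collagen-binding integrin chain, and Gja1, the connexin of tendon cell contacts, were higher and Itgb3 lower. In the insulin-like growth factor system Igfbp7 was higher and Igf2 and Igfbp5 lower of 9.

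Of 12 surface markers of progenitor and stromal cells measured, 11 were called lower in members in both genotypes and 0 higher, with median log2 ratios of -2.64 and -2.01, against a background of 14.4% called lower. Under TMM 9 were called lower and the medians were -2.03 and -1.58. Cd34, a sialomucin of stromal progenitors, ran at 0, 28.7 and 1338 CPM in WT members and 0, 1097 and 4934 CPM in WT other cells as lowest, median and highest. In Mkx-/- cells the values were 0, 34.5 and 1674 CPM in members and 0, 865 and 5344 CPM in other cells. Members and other cells overlapped, and the log2 ratios of the sums were -2.77 (-2.85 to -2.68) and -2.26 (-2.34 to -2.18). The 12 genes with the lowest ratios that the naming rule gave were Emilin2, Cd248, Mustn1, Efemp1, Pi16, Scara5, Cd55, Clec3b, Fbn1, Anxa3, Cd34 and Aspn. Their ratios lay between -3.40 and -2.26 in WT and between -3.02 and -2.21 in Mkx-/-. Fbn1, fibrillin 1 of elastic microfibrils, was still read in 97.4% of WT and 98.8% of Mkx-/- members, at a log2 ratio of -2.60 and -2.32. Summed over the 12 surface markers, 75 of 78 WT members and 81 of 84 Mkx-/- members still had over 1000 CPM. Of 7 proliferation genes measured, 4 were lower in members (Mki67, Top2a, Ccnb1 and Birc5) and 0 higher. Of 14 immediate early and heat shock genes, which tissue digestion can induce, Fos was called higher, at log2 ratios of 2.40 and 1.98, and 0 lower. Over all genes 3.78% were called higher and 14.4% lower.

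**Figure D2:**
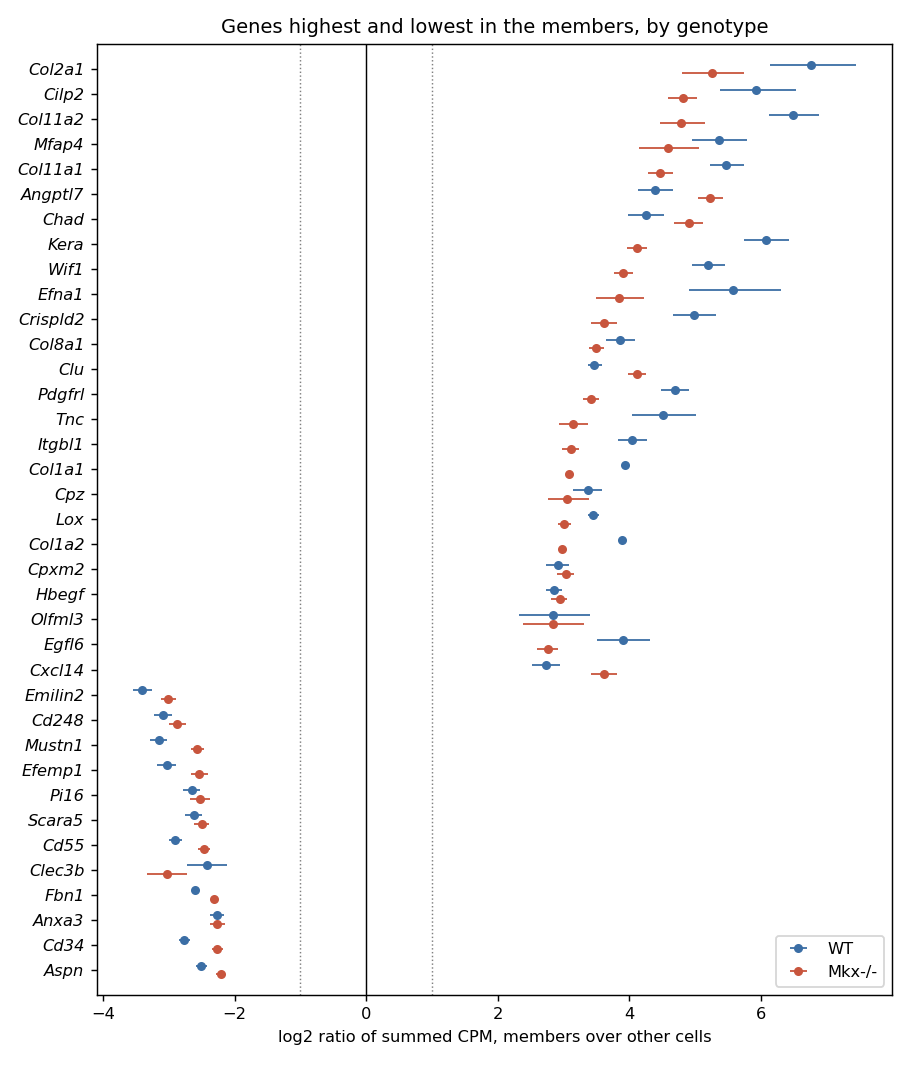
Log2 ratio of summed CPM of members over other cells (horizontal axis) for the 25 highest and 12 lowest named genes, with WT in blue, Mkx-/- in red and bars for exact 95% intervals of counting error. Dotted lines mark 2-fold. All 25 lie at 2.73 or above in both genotypes, and all 12 at -2.21 or below.

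**Figure D3:**
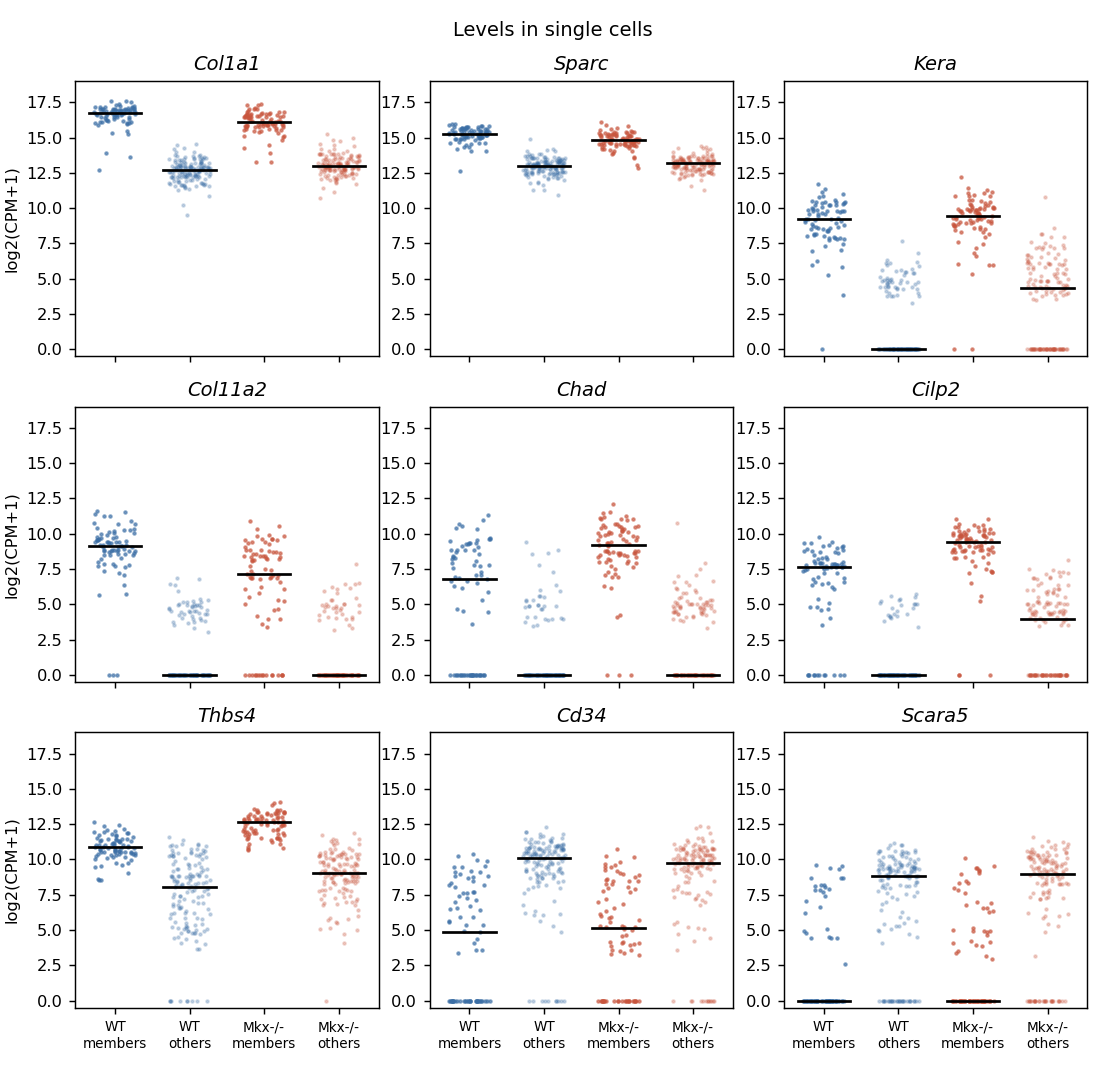
Level in each cell as log2(CPM+1) (vertical axis) of 9 genes in members and other cells of each genotype, with a black line at the median. Col1a1 and Sparc are read in every cell and are higher in members, Kera, Col11a2, Chad and Cilp2 have a median of 0 in WT other cells, and Cd34 and Scara5 show the opposite order.

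Members also differed among themselves. Over the 78 WT and 84 Mkx-/- members, levels of 1844 widely read genes were set against the Tnmd and Fmod score. Serpinf1, which encodes pigment epithelium-derived factor, had the strongest positive Spearman correlation (0.646 in WT, 0.712 in Mkx-/-), followed by Pcolce (0.546 and 0.446), the protease Htra1 (0.511 and 0.425) and Sparc (0.46 and 0.423). Col1a2 stood at 0.412 and 0.452, Col1a1 at 0.392 and 0.408, Col6a2 at 0.557 and 0.362, and Kera at 0.358 and 0.427. Negative correlations were looked up after the positive ones were seen. Among the 8 strongest were Col3a1 (-0.604 and -0.517), the microfibril gene Mfap5 (-0.586 and -0.508), Ugp2 (-0.449 and -0.585) and Cd34 (-0.442 and -0.586). The score is the measure that chose these cells, so the correlations describe them and support nothing. The points share a library and its depth, the score itself correlated with total reads at -0.174 in WT and -0.383 in Mkx-/- members, and no p-value was formed.

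Markers of other cell types were given by their summed level in each cell. The median member had 0 CPM of the 6 endothelial, 6 immune, 6 muscle, 5 Schwann cell and 5 osteoblast markers in both genotypes. Summed endothelial markers ran from 0 to 1206 CPM in WT members and from 0 to 64 CPM in Mkx-/- members, where Tie1 and Cldn5 had no read. Immune markers ran from 0 to 4132 CPM in WT and from 0 to 234 CPM in Mkx-/- members, Schwann markers from 0 to 6128 and from 0 to 9966 CPM, and mural cell markers from 0 to 915 and from 0 to 1271 CPM. Each upper end came from a few cells. The 6 osteoclast markers were not near 0. Their sum had a median of 727 CPM in WT and 1133.8 CPM in Mkx-/- members, against 953 and 1413.9 CPM in other cells, and passed 1000 CPM in 27 WT and 48 Mkx-/- members. Most of it was Ctsk, the collagen-degrading protease cathepsin K, which fibroblasts also make, with medians of 722 and 855 CPM in members and a log2 ratio of Mkx-/- to WT of 0.57. Acp5, an acid phosphatase of osteoclasts, was read in 5.13% of WT and 57.1% of Mkx-/- members and in 6.04% and 22.1% of other cells, and was called higher in Mkx-/- members at 6.84, with 37.9% of the reads in 1 member. Atp6v0d2, a proton pump subunit, was also called higher at 3.65, with 62.3% of the reads in 1 member. Mmp9 and Dcstamp had no read in any member. Without cells that held over 1000 CPM of endothelial, immune or Schwann markers, an alternative added after the data were seen, 378 genes were higher in members in both genotypes and 1637 lower.

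Between genotypes, members of Mkx-/- mice had less collagen I and, in CPM, higher sums of cartilage-type, proteoglycan and matricellular genes. The median gene was also higher in Mkx-/- members, at a log2 ratio of 0.21 in CPM and 0.05 under TMM. Summed per cell, cartilage-type genes had medians of 7462.2 CPM in WT and 9281.7 in Mkx-/- members, and 4703.6 and 6800.0 in other cells. For small leucine-rich proteoglycans they were 10820.0 and 13175.2 CPM in members, and 9144.8 and 10293.8 in other cells. Both sums were thus higher in Mkx-/- other cells too, and neither was scaled for the shift of the median gene. A list of 4 genes taken to mark tendon cells between progenitors and tenocytes also differed in these members. It was chosen with results of these cells known and is no independent evidence. Itm2a (1.16), Myoc (1.60) and Lgals3 (1.0) were called higher, and Serpine2 was at -0.22. Under TMM 2 of the 4 genes were called higher, and under DESeq2 size factors 1. The 4 genes summed per cell had a median of 881 CPM in WT and 2106.3 CPM in Mkx-/- members, against 2970.0 and 4214.8 CPM in other cells. Their part in the differences below was not tested. The number of genes past 2-fold depended on how widely a gene had to be read. Of 8366 genes with at least 100 reads in members, 1152 were higher in Mkx-/- members (13.8%) and 554 lower (6.62%). Of 2402 genes read in at least 50% of members of a genotype, a filter added after the data were seen, 5.45% were higher and 0.791%, or 19 genes, lower. In other cells under the same filters 7.45% and 6.66% of 9330 genes, and 1.34% and 0.594% of 2019 genes, were past 2-fold. Whether the genotypes differ more in members than in other cells was not tested. The median log2 ratio over all genes was 0.21 in members and 0.01 in other cells, and 0.05 and 0.03 under TMM, where 867 genes were higher and 714 lower, so the share of calls that were higher went from 67.5% to 54.8%.

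Collagen I was lower in Mkx-/- members. The 11 fibrillar collagens together had a median of 266718 CPM per WT member and 178838 CPM per Mkx-/- member. The log2 ratio of Mkx-/- to WT members was -0.46 (-0.46 to -0.45) for Col1a1 and -0.57 (-0.58 to -0.57) for Col1a2, short of 2-fold, and in other cells it was 0.40 and 0.33. The opposite signs in members and other cells were not tested. Col11a2 was the 1 fibrillar collagen called lower, against 6.62% of genes. It ran at 0, 556 and 3181 CPM in WT members and 0, 141.5 and 1878 CPM in Mkx-/- members as lowest, median and highest, overlapping over most of the range, with a ratio of -1.34 (-1.42 to -1.27). Its partner chain Col11a1 had -0.00 (-0.06 to 0.05), so the ratios of these collagen XI chains differed. Col2a1 was at -0.55 (-0.65 to -0.46). The minor collagen V chains Col5a1 and Col5a2 went the other way. With Col27a1 they were the 3 of 10 fibrillar collagens called higher, against 13.8% of all genes. The collagen V chain Col5a3 did not, at -0.77 in members. Col5a1, a chain that starts fibrils, ran at 0, 204.3 and 1599.5 CPM in WT members and 166.3, 1294 and 3371 CPM in Mkx-/- members. The ratio was 1.96 (1.90 to 2.03) in members and 0.15 (0.11 to 0.19) in other cells, whose medians were 1200.1 and 1283 CPM. Mkx-/- members thus had Col5a1 near the level of other cells, and WT members below it. Col5a2 had 1.31 in members and 0.29 in other cells.

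Of 9 small leucine-rich proteoglycans 5 were called higher in Mkx-/- members and 0 lower, against 13.8% and 6.62% of all genes, with a median log2 ratio of 1.31 in members and 0.59 in other cells. The 5 were Bgn, Prelp, Ogn, Epyc and Chad, and they were also 5 under TMM. Bgn, biglycan, which is abundant in cartilage and compressed tendon, ran at 0, 212.4 and 1128 CPM in WT members and 95.4, 1018 and 3264 CPM in Mkx-/- members. Most Mkx-/- members lay above the WT median, and the ratio was 2.18 (2.10 to 2.26) in members against 0.29 (0.22 to 0.35) in other cells. Prelp, a proteoglycan that anchors basement membranes to collagen, had medians of 53.4 and 911 CPM in members and a ratio of 2.22 (2.15 to 2.30), against 0.59 in other cells. Kera, highest in members, hardly differed between genotypes there (0.27), and in other cells it was at 2.24 from medians of 0 and 19.4 CPM. Dcn was at -0.14.

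Of 13 cartilage-type genes measured, 8 were called higher at 2-fold in Mkx-/- members and 0 lower, with a median log2 ratio of 1.31 in members and 0.56 in other cells. Of all genes 13.8% were called higher and 6.62% lower. Under TMM 7 were called higher and 1 lower. The 8 were Acan, Sox5, Comp, Matn3, Chad, Cilp, Cilp2 and Ucma. Cilp2, a cartilage intermediate layer protein, ran at 0, 200.7 and 865 CPM in WT members and 0, 674 and 2167 CPM in Mkx-/- members, with a ratio of 1.62 (1.54 to 1.70) in members and 2.74 (2.15 to 3.38) in other cells. Its paralogue Cilp had 2.14 (2.06 to 2.23) in members and -0.12 (-0.23 to -0.01) in other cells, so in other cells the pair did not go together. Chad ran at 0, 111.7 and 2579 CPM in WT members and 0, 599 and 4478 CPM in Mkx-/- members, read in 60.3% and 95.2% of them after thinning, with a ratio of 1.31 (1.24 to 1.39). Ucma, a small secreted protein of the upper growth plate, was read in 6.41% of WT members and 34.5% of Mkx-/- members and in 2.01% and 4.29% of other cells (2.56%, 28.6%, 0% and 2.96% after thinning), and its ratio in members was 3.62 (3.21 to 4.06). The master factor Sox9 was not among the genes that were higher, at -0.64 (-0.76 to -0.53) in members and -0.51 in other cells.

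Of 17 matricellular genes 8 were called higher in Mkx-/- members and 0 lower, against 13.8% and 6.62% of all genes. They were Thbs1, Thbs2, Thbs4, Tnxb, Postn, Nov, Smoc2 and Fn1. The summed level of this list had a median of 5593 CPM in WT members and 11628 CPM in Mkx-/- members, against 4558 and 5597 CPM in other cells. Thbs4, with the per-cell values given above, had a ratio of 1.58 (1.55 to 1.61) in members and 0.68 (0.61 to 0.74) in other cells. Nov, which encodes the CCN family protein CCN3, ran at 0, 12.8 and 1012 CPM in WT members and 0, 562 and 4857 CPM in Mkx-/- members, with ratios of 2.92 (2.80 to 3.03) in members and 0.28 (0.21 to 0.35) in other cells. Angptl7 was read in 44.9% of WT and 82.1% of Mkx-/- members after thinning, and its ratio was 1.96 (1.90 to 2.03).

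Of 20 collagen-modifying genes Plod2, Loxl1 and Loxl3 were called higher and Loxl4 lower, shares near the 13.8% and 6.62% of all genes, and the median was -0.17. Plod2, the hydroxylase of the lysines in collagen telopeptides, was read in 30.8% of WT and 72.6% of Mkx-/- members (25.6% and 61.9% after thinning), at a ratio of 2.38 (2.17 to 2.60) in members and 0.08 (-0.08 to 0.25) in other cells. Lox was at -0.72. Of 11 tendon lineage factors 0 were called higher and 2 lower, against 13.8% and 6.62% of all genes. Mkx was called lower (-1.24 (-1.48 to -1.0)), and Scx was at -0.46 (-0.64 to -0.29). Of 7 bone and mineralization genes Spp1, Enpp1 and Ank were higher and Bglap and Bglap2 lower, against 13.8% and 6.62% of all genes. The 5 osteoblast markers, Bglap among them, summed to only 12.6 CPM in WT and 5.4 CPM in Mkx-/- members. The ratio of Spp1 was 1.41 in members and 4.27 in other cells. Igfbp5, an insulin-like growth factor binding protein, had medians of 689 and 361 CPM and a ratio of -1.01 (-1.07 to -0.96). The 12 progenitor and stromal markers had a median ratio of 0.36. Pdgfra was the 1 called higher (1.49) and Dpp4 the 1 called lower, against 13.8% and 6.62% of all genes. None of 14 immediate early genes and none of 19 folding and export genes passed 2-fold in either direction.

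**Figure D4:**
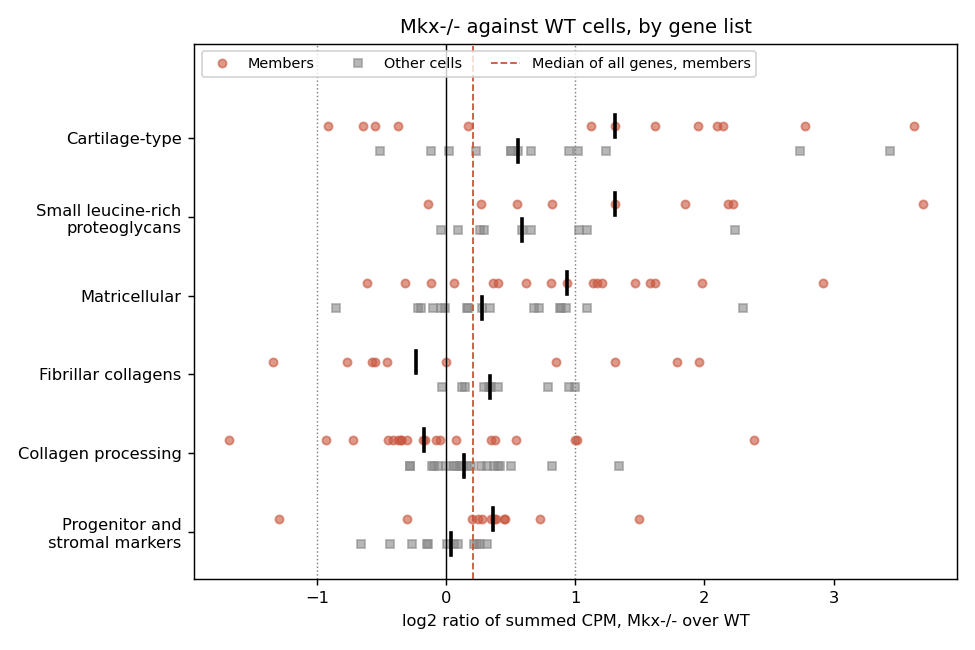
Log2 ratio of summed CPM of Mkx-/- over WT (horizontal axis) for each gene of 6 lists, in members (red circles) and in other cells (grey squares), with black bars at the list medians and a dashed line at the members' median over all genes, 0.21. The members' medians were 1.31 for cartilage-type genes and proteoglycans, 0.94 for matricellular genes, -0.23 for fibrillar collagens, -0.17 for collagen processing and 0.36 for progenitor markers.

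The 25 genes that mark members differed between genotypes in both kinds of cell. In members 7 of the 25 were 2-fold higher in Mkx-/- and 2 lower (Col11a2 and Cpz, a carboxypeptidase), with a median log2 ratio of 0.22. In other cells 13 were higher and 0 lower, with a median of 1.0. The choosing score also differed there, with a median of 5.33 in WT and 6.57 in Mkx-/- other cells, and its part in these counts was not tested. Of all genes 13.8% were higher and 6.62% lower in members, and 7.45% and 6.66% in other cells. The 12 low genes stayed within 2-fold in both kinds of cell, from -0.30 to 0.73 in members and from -0.43 to 0.48 in other cells. Col8a1 was higher in both, at 1.56 in members and 1.92 in other cells, and so was Egfl6, a secreted protein with epidermal growth factor repeats, at 1.60 and 2.74.

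Many of the largest genotype ratios came from genes read in a minority of members of either genotype. The naming rule asked for a read in at least 20% of members of the genotype with the higher level. It also asked for no cell with over 25% of that genotype's reads. The higher of each pair of shares below is thus partly fixed by the rule. The highest in Mkx-/- members included Kcnj15, Adam23, Htra4, Epyc, Foxc1, Ucma, Cnr1, Sh2b3, Prss35, Zfp354c and Ddah1. Epyc, epiphycan of growth plate cartilage, was read in 7.69% of WT and 32.1% of Mkx-/- members, and Cnr1, a cannabinoid receptor, in 6.41% and 36.9%. After thinning these shares were 6.41% and 22.6% for Epyc and 2.56% and 25% for Cnr1. In other cells, Epyc was read in 5.44% of WT and 13.3% of Mkx-/- thinned cells. Kcnj15, a potassium channel, had 0 reads in WT members and a summed level of 18.8 CPM in Mkx-/- members, so with 3 reads in place of 0 it was at least 5.37 higher on the log2 scale. The lowest included Gbp6, Cck, Lamtor3, Cuzd1, Irgm1, Arl4d, Pgm2, Plcg1, Cpe and Ooep. Cck, the peptide hormone cholecystokinin, was read in 32.1% of WT and 2.38% of Mkx-/- members, with 1 read in WT and 0 in Mkx-/- other cells. Cpe, carboxypeptidase E of the regulated secretory route, was read in 48.7% and 14.3% of members and had a ratio of -2.64. Gbp6 and Irgm1 belong to families of near-identical interferon-induced genes and Lamtor3 has a near-identical copy, so their counts are uncertain. Lamtor3 was widely read in WT. After thinning it had a read in 59% of WT and 11.9% of Mkx-/- members, and in 63.9% and 17% of other cells.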

How the data were processed

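Single-cell RNA sequencing (Fluidigm C1 high-throughput circuits, Nextera XT libraries) was available for 227 WT and 224 Mkx-/- cells. Values were deposited as raw counts of reads in each gene, made by the authors by removing bad reads with AfterQC, trimming 3′ ends with NGSQCToolkit, aligning with bowtie2 and counting with featureCounts. The study's methods name mm9 and the submitters' processing notes name mm10, and the build was not settled here. Strand and the treatment of reads with several positions are not given in the sources used here, so overlapping genes and near-identical copies are uncertain. The authors left out wells with no cell or several, and no doublet caller was run. The table held 48795 symbols, 25841 with a read, and 0 columns were unused. No columns were identical.

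Counts were summed over members or other cells of a genotype and divided by the summed reads. Genes needed at least 100 reads in the cells compared. A sum of 0 was set to 3 reads, and the ratio is then a bound. With 1 sample per genotype no test was made. Genes were called at 2-fold. Sums and ratios have exact 95% intervals that cover counting error only. Named genes were the 25 highest by the smaller of both genotypes' ratios, with a read in 50% of members of each genotype. The 12 lowest went by the larger ratio, with a read in 50% of other cells of each genotype. Between genotypes 12 were named in each direction, and 8 by correlation. Those between genotypes needed a read in 20% of members of the genotype with the higher level. In that genotype no cell could hold over 25% of reads. The mean over cells had to have the same sign. A few genes that these rules or lists held are not reported here. The members and gene lists were chosen with earlier results of these data known. Positions are from GENCODE M1 (mm9) and promoters from RefSeq (GRCm38.p6), and the CCAAT motif was added after the sequences were seen. Alternatives were other cutoffs of 9 and 11, choice by 6 other markers, thinning, equal weight per cell, TMM, DESeq2 size factors, no filter with a pseudocount of 1 CPM, and leaving out cells. The computation was tested on simulated data. Python 3.11.15, pandas 2.3.3, numpy 2.4.6, scipy 1.17.1, matplotlib 3.10.9, R 4.3.3, edgeR 4.0.16 and DESeq2 1.42.0 were used, the last pair for scaling factors only.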

Additional observations from a re-analysis of the deposited data

Results flagged for a closer look

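Some named or listed genes had ratios in opposite directions in members and other cells or in both genotypes, each past 2-fold. None of these differences was tested, and many rest on few reads.

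Between genotypes, Adam23, a membrane protein, was higher in Mkx-/- members (5.14 on the log2 scale) and lower in Mkx-/- other cells (-1.98), where it had 3 reads against 12 in WT. Kcnj15 was at least 5.37 in members and -1.79 in other cells. Irgm1 was at -3.34 in members and 2.53 in other cells. Fgfr3 was at 1.46 and -1.66, the bone gene Bglap2 at -1.10 and 2.71, and the protease Adamts12 at 1.01 and -1.73. Pecam1, an endothelial gene, was at -2.97 in members and 2.24 in other cells, with 3 reads in WT other cells and 53.2% of the WT members' reads in the deepest WT member.

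Between members and other cells, Cpe was higher in WT members (1.60) and lower in Mkx-/- members (-1.99). Pgm2 was at 1.05 in WT and -1.05 in Mkx-/-, Bglap2 at 1.32 and -2.49, and Flt1, a receptor of vascular endothelial growth factor, at 2.04 and -1.59. Acp5, an acid phosphatase of osteoclasts, was at -2.54 in WT and 1.74 in Mkx-/-, where 1 member held 37.9% of the reads. Kcnj15 was -2.13 or lower in WT, a bound from 0 reads, and 5.02 in Mkx-/-. The globin gene Hba-a1 was at -1.13 and 3.52, the latter resting on 1 read in Mkx-/- other cells.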

How the results depend on the processing

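The difference in the share of members, 3.14 percentage points, ran from 1.42 to 4.91 over the alternatives. Genes higher in members in both genotypes, 3.78% of the 10961 genes tested, became 1.85% of that number after thinning to 20000 reads, 6.07% under TMM and 6.2% under DESeq2 size factors. Genes lower in members, 14.4%, became 6.59% and 6.41% under those scalings. Genes higher in Mkx-/- members, 13.8% of the 8366 tested, became 4.36% of that number after thinning, 33.4% (2795 genes) with no filter on reads and 1.57% with a read in 50% of members, and the lower genes, 6.62%, became 1.08%, 34.4% (2875 genes) and 0.227%. Each share is over the number tested with the main filter, while the alternatives tested other numbers of genes. With no filter more were tested, and with a read in 50% of members 2402 were, of which 5.45% and 0.791% were called. Thinning leaves fewer genes with 100 reads. Of the ratios of named genes, 0 called values reversed under any alternative, and 0 to 2 changed sign. Of 72 list medians, 19 changed sign under TMM and 20 under DESeq2, which shifted the medians by 0.43 and 0.44. The list medians that reversed were those of other cell types. At a cutoff of 11 the WT ratio of members to other cells was -4.93 for endothelial, -1.23 for mural and -0.75 for Schwann markers. For Schwann markers it was -0.20 in WT without cells with markers of other types, and in Mkx-/- it was -2.56 without the 5% of cells with most genes, -1.85 without the leading cell of each gene and -1.77 without cells with markers of other types. A cutoff of 11 counts members with a score of 10 to 11 as other cells, and the other alternatives leave out cells. The cause of each reversal was not tested.

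No paired analysis was possible because each genotype was 1 sample and the cell numbers are not shared between genotypes. Depth limits rare transcripts: a gene at a few CPM is expected in few cells at these depths, so a cell without a read is not a cell without the transcript.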
